A study of Mus musculus with 2 samples.

Results

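Collagen chain genes encode the chains that wind around each other into the triple helix of collagen, the main protein of the extracellular matrix. They were taken here as every gene whose symbol has the form Col, number, a, number in the platform's probe annotation, among probe sets assigned to a single gene. This gave 44 genes, measured by 46 probe sets, of 19751 named genes in all, by a rule on symbols that reads no measured value. All 44 gene identifiers were found in the RefSeq gene table under the same symbols.

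RNA was measured by microarray on 2 arrays, replicate 1 and replicate 2, of 1 group. The group is fibroblastic reticular cells (FRCs) of lymph nodes from untreated C57BL6/J mice aged 4 to 6 weeks. Lymph node stroma was cultured for 7 to 10 days in αMEM medium with 10% fetal calf serum, and the labels call the cells both purified and expanded in culture. No second condition, freshly isolated cell or other cell type was measured, and culture on its own can change a fibroblast's matrix genes, so the values describe cultured cells only. The labels do not tell whether the replicates came from separate mice or cultures, and their spread may be technical.

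FRCs are the fibroblasts of the lymph node's T cell zone. They make and wrap a mesh of thin collagen fibres, the reticular fibres, along which lymphocytes move and through which small molecules are carried. Reticular fibres hold a core of fibrillar collagens, with type III collagen as the classical reticular component, surrounded by a sheath that resembles a basement membrane and contains type IV collagen. Collagens outside the fibrils decorate their surface (the FACIT class, fibril-associated collagens with interrupted triple helices), form beaded microfibrils (type VI) or span the cell membrane.

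Values are log2 intensities, always given for replicate 1 first and replicate 2 second. A probe set gives signal without its transcript too, so each level was read against 2 background limits. The first was the 95th percentile of 1035 olfactory receptor probe sets, 7.15 on replicate 1 and 7.17 on replicate 2. The second and stricter limit, the tissue-restricted limit, was the same percentile of 36 genes known from organs such as liver, retina or testis alone, 8.08 and 8.04. The first limit was passed on both arrays by 14 of these 36, so a level between the limits was not read as evidence of a transcript. Of the 36, 2 passed the stricter limit on both arrays as well, Oxt (8.45 and 8.45) and Apoa2 (8.15 and 8.21). A level up to that of Oxt may therefore be background too. Probes differ in binding, so the level of a gene was not ranked against that of another gene. The identity given in the labels was checked on marker genes: all 6 FRC and fibroblast markers passed both limits (Pdpn 12.60 and 12.73, Pdgfra 11.84 and 11.94). Of 3 measured osteoblast markers, Sost (8.15 and 8.12) passed the stricter limit on both arrays, and Ibsp (6.16 and 6.13) and Sp7 (6.92 and 7.04) were below the first. Of 4 measured leukocyte, 3 blood endothelial, 3 lymphatic endothelial and 3 epithelial markers, 0 passed the stricter limit on either array.

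Of the 44 collagen genes, 42 lay above the first limit on both arrays, against 67.3% of all named genes. Above the stricter limit on both arrays lay 29 (65.9%), against 51.1% of all named genes, 2 passed it on 1 array, and 13 on neither. Chains of the major fibrils (types I, III and V), of the common type IV network, of type VI filaments (Col6a1, Col6a2 and Col6a3), and Col8a1, Col12a1 and Col15a1 were among the 29. The genes that failed the first limit were Col6a5, a type VI chain, at 7.09 and 7.08, and Col8a2, the partner chain of Col8a1, at 7.10 and 7.17.

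**Figure D1:**
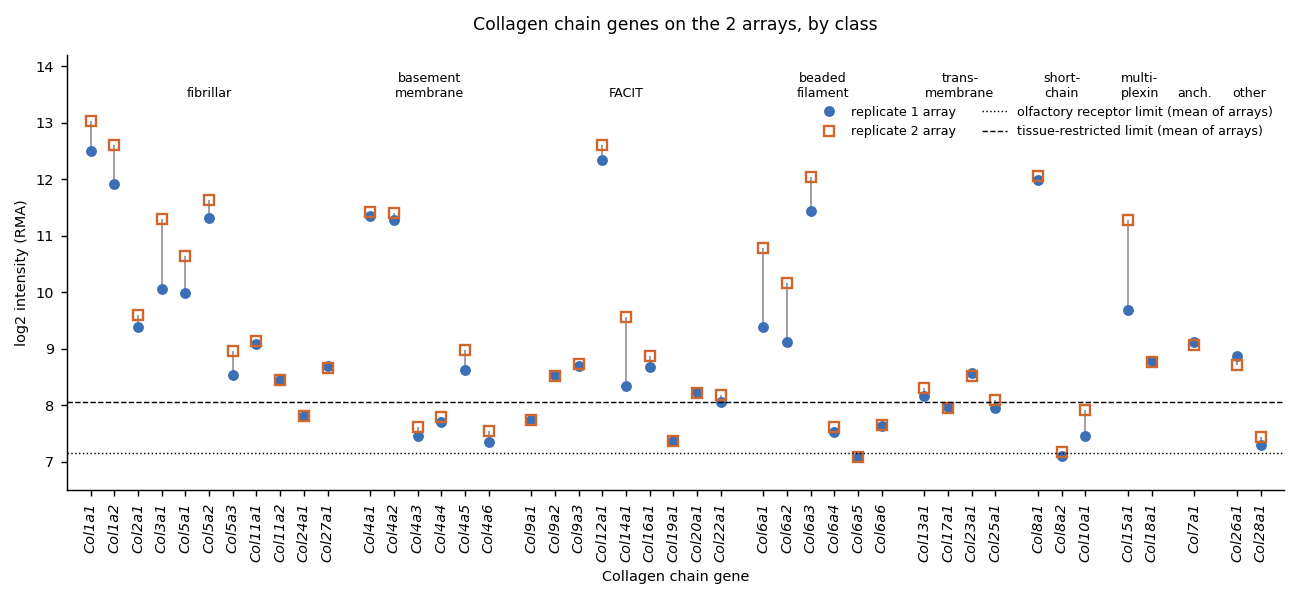
log2 RMA intensity (vertical axis) of the 44 collagen chain genes, grouped by class along the horizontal axis, with a filled circle for the replicate 1 array and an open square for the replicate 2 array joined by a line. The dotted and dashed lines are the 2 background limits averaged over the arrays (7.16 and 8.06). Most pairs of symbols overlap, and the long lines belong to Col15a1, Col6a1, Col3a1, Col14a1 and Col6a2.

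The fibrillar class holds the chains that pack into the banded fibrils that carry tension. Of its 11 genes, 11 passed the first limit and 10 the stricter one on both arrays, against 67.3% and 51.1% of all named genes. Col1a1 and Col1a2, the chains of type I collagen, were measured at 12.50 and 13.03, and at 11.92 and 12.60. Col3a1, whose product forms type III collagen alone, was at 10.05 and 11.30. Type V collagen starts fibrils and limits their width. Its chain genes were measured at 10.00 and 10.64 (Col5a1), at 11.33 and 11.64 (Col5a2) and at 8.54 and 8.96 (Col5a3). All 6 of these interstitial chains read higher on the replicate 2 array, by between 0.32 and 1.25. Over all genes whose mean level exceeded the mean first limit, 51.2% read higher there.

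Chains known best from cartilage were read as well. Col2a1, the main cartilage fibril chain, was at 9.38 and 9.59. Its type XI partners were at 9.08 and 9.13 (Col11a1) and at 8.44 and 8.45 (Col11a2). Each of these 3 was above the stricter limit on both arrays, but Col11a2 was at the level of Oxt (8.45 and 8.45) and may be background. Of 6 chondrocyte markers only the transcription factor gene Sox9 (11.03 and 11.47) was above that limit on both arrays. The cartilage proteoglycan gene Acan (7.26 and 7.27) passed the first limit only, Comp (7.60 and 8.04) passed the stricter one on replicate 2 only, and Matn1 (6.41 and 6.59), Matn3 and Hapln1 lay below both. Col27a1, a fibrillar chain of developing skeleton, was at 8.70 and 8.66. Col24a1 was at 7.81 and 7.80, between the limits.

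Promoters are shown for Col1a2 and Col3a1, the fibrillar genes of at least 1.5-fold array difference whose window ends at the outermost start of the gene in the RefSeq table. Each run is the 250 bases before the RefSeq start (build GRCm38.p6), 5′ to 3′ on the gene's strand, at chr6:4505368-4505617 (plus strand) and chr1:45311288-45311537 (plus strand). Capitals mark 3 motifs on either strand, the TATA box TATAAA, the box CCAAT and the GC box GGGCGG, and no matches overlap each other here.
Col1a2: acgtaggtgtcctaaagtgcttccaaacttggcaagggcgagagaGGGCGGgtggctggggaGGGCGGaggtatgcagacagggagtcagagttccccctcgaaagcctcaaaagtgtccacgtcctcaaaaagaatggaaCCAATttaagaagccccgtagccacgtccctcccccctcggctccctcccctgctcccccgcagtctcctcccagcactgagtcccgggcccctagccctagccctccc
Col3a1: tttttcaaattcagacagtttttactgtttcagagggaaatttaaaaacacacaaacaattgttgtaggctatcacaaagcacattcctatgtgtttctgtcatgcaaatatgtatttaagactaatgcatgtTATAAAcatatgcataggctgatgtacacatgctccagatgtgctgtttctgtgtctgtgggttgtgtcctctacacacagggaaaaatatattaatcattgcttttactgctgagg
The Col1a2 window held 2 GGGCGG and 1 CCAAT, and 62.0% of its bases were G or C. The Col3a1 window held 1 TATAAA, whose first base lay 117 bases before the start, and 35.2% of its bases were G or C. Among 38 such windows of 35 collagen genes, 22 held GGGCGG (57.9%), 13 CCAAT (34.2%) and 5 TATAAA (13.2%). The shares over all 32851 windows in the RefSeq table, of 27025 genes not filtered by gene type, were 32.7%, 33.8% and 12.4%. Collagen windows were also richer in G and C, with a median of 59% of bases against 52.4% in all windows. The part of base composition in the GGGCGG share was not tested, nor was that of gene type in either contrast. Windows for the other 9 collagen genes, Col1a1 and Col5a2 among them, were not used here.

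Basement membrane collagens build the flat type IV network under epithelia and around vessels and reticular fibres. All 6 genes passed the first limit and 3 (50%) the stricter one on both arrays, the latter near the 51.1% of all named genes. Col4a1 was at 11.35 and 11.43 and Col4a2 at 11.27 and 11.41. These are the chains of the common network, present in nearly all basement membranes. Col4a5, a chain of the more restricted networks, was at 8.62 and 8.97. Its possible partners lay between the limits, with Col4a3 at 7.45 and 7.61, Col4a4 at 7.70 and 7.80 and Col4a6 at 7.35 and 7.54. The common network thus had all its chains above the stricter limit, and each restricted network had 1 chain.

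FACIT collagens sit on the surface of fibrils. All 9 genes passed the first limit, and 6 (66.7%) the stricter one on both arrays, against 51.1% of all named genes. Col12a1, found on type I fibrils in tissues under load, was at 12.34 and 12.61. Col14a1, which also binds interstitial fibrils, was at 8.34 and 9.56, and so was the FACIT gene that differed most between the arrays. Col16a1 was at 8.68 and 8.88. The type IX chains coat cartilage fibrils. Of them, Col9a2 (8.53 and 8.52) and Col9a3 (8.70 and 8.74) passed the stricter limit, and Col9a1 (7.74 and 7.73) lay between the limits. Col20a1 was at 8.24 and 8.22, below Oxt (8.45 and 8.45). Col22a1, a collagen of tissue junctions such as that of muscle and tendon, was at 8.06 and 8.18 and passed the stricter limit on replicate 2 only. Col19a1 was at 7.37 and 7.37, between the limits.

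Type VI collagen forms beaded microfibrils that link cells to the interstitial matrix. Its chains Col6a1 and Col6a2 assemble with Col6a3 or with 1 of the later-found chains Col6a4, Col6a5 and Col6a6. Col6a1 was at 9.39 and 10.79, Col6a2 at 9.12 and 10.16 and Col6a3 at 11.43 and 12.04, all above the stricter limit. Col6a4 lay between the limits at 7.54 and 7.62. Col6a6 averaged 7.63 and 7.65 over its probe sets, which disagreed: 1 read 8.61 and 8.67, and the other 6.65 and 6.62. The probe sets of Col6a5 disagreed likewise, at 7.59 and 7.51 against 6.59 and 6.65. Both genes therefore have a probe set above and a probe set below the first limit, and the higher probe set of Col6a6 was also above the stricter limit on both arrays. Their averages carry that uncertainty.
The promoter of Col6a1, the type VI gene of largest array difference, is shown for the 250 bases before the RefSeq start (GRCm38.p6, chr10:76726045-76726294, minus strand), in lower case throughout because none of the 3 motifs occurred in it on either strand.
Col6a1: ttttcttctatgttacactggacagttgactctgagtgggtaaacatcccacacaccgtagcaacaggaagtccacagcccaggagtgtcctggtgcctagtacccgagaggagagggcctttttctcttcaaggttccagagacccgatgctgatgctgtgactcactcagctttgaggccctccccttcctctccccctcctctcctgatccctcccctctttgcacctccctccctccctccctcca

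Transmembrane collagens are held in the cell membrane by a hydrophobic stretch and can be shed. All 4 genes passed the first limit and 2 (50%) the stricter one on both arrays, the latter near the 51.1% of all named genes. Col13a1, found at cell adhesions, was at 8.16 and 8.30, below Oxt (8.45 and 8.45), and Col23a1 was at 8.57 and 8.51. Col25a1, known from neurons, was at 7.95 and 8.10, above the stricter limit on replicate 2 only. Col17a1, the hemidesmosome collagen of keratinocytes, was at 7.98 and 7.95, between the limits.

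The remaining classes hold few genes. Col8a1, a short-chain collagen that forms hexagonal lattices in vessel walls and under the corneal endothelium, was at 12.00 and 12.05. Its relative Col10a1, the collagen of hypertrophic cartilage, was at 7.46 and 7.92, between the limits. The multiplexins are proteoglycan-like collagens at the outer face of basement membranes. Col15a1 was at 9.69 and 11.28, and Col18a1, the precursor of endostatin, at 8.78 and 8.77. Col7a1, which forms anchoring fibrils under skin epithelium, was at 9.13 and 9.06. Col26a1 was at 8.87 and 8.72, and Col28a1 at 7.30 and 7.44, between the limits.
The promoter of Col8a1 is shown beside those above because its gene passed the stricter limit and differed by only 0.06 between the arrays (GRCm38.p6, chr16:57754738-57754987, minus strand, 250 bases before the RefSeq start, with capitals marking GGGCGG on the opposite strand).
Col8a1: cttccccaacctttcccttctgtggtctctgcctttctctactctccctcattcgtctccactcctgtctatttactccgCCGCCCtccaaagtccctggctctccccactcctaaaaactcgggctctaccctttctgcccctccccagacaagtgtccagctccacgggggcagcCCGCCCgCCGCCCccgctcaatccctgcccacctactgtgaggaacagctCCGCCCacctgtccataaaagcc
The window held 4 such matches, none of TATAAA and none of CCAAT. These matches describe letters in a window and not bound factors.

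The arrays were then set against each other, as replicate 2 minus replicate 1. Each difference rests on 1 array a side, so no test was possible, and the counts are descriptions read against the same counts over all genes. The difference was computed for genes whose mean level exceeded the mean first limit, 13577 genes in all and 42 of the 44 collagens. Collagen genes of at least 2-fold difference numbered 5, all higher on replicate 2, where 1.05% of all genes were so, and 0 were 2-fold higher on replicate 1, where 0.368% were. At 1.5-fold the counts were 8 for replicate 2, against 2.87% of all genes, and 0 for replicate 1, against 1.91%. Of the 42 genes, 31 read higher on replicate 2 by any amount, against 51.2% of all genes. The median difference of the collagens was 0.14, and that of all genes was 0.0046.

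Col15a1 differed most, 3.01-fold (log2 difference 1.59), and it was followed by Col6a1 at 2.64-fold, Col3a1 at 2.38-fold, Col14a1 at 2.33-fold and Col6a2 at 2.06-fold. Both arrays were above the stricter limit for these 5 genes, so none of the folds rests on a value below that limit. Col14a1 came nearest to it, at 8.34 on replicate 1 against 8.08. That is below Oxt (8.45), 1 of the tissue-restricted genes, and the part of background in the Col14a1 fold was not tested. Col1a2 (1.61-fold), Col5a1 (1.56-fold) and Col6a3 (1.53-fold) passed 1.5-fold. Col1a1 stayed just below at 1.44-fold. Among collagen genes read higher on replicate 1, the largest difference was that of Col26a1 (1.11-fold).

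**Figure D2:**
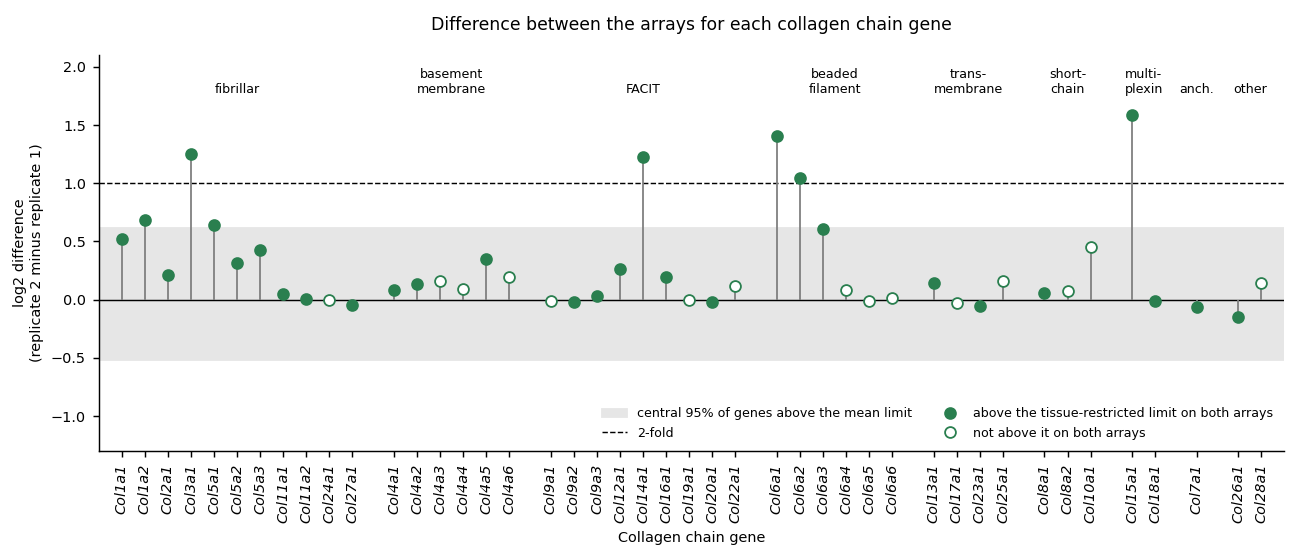
log2 difference between the arrays (replicate 2 minus replicate 1, vertical axis) for each collagen chain gene, by class; filled circles are genes above the tissue-restricted limit on both arrays and open circles the others. The grey band is the central 95% of the 13577 genes above the mean limit (-0.52 to 0.62), the dashed line is 2-fold, and the genes above that line are Col3a1, Col14a1, Col6a1, Col6a2 and Col15a1.

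By class, the median difference was 0.61 for the 5 beaded filament genes above the mean limit and 0.32 for the 11 fibrillar genes. It was 0.15 for the 6 basement membrane genes, 0.03 for the 9 FACIT genes and 0.06 for the 4 transmembrane genes. The class medians hide a division within classes. In the beaded filament class, Col6a1, Col6a2 and Col6a3 differed by 0.61 to 1.40, whereas Col6a4 and the average of Col6a6, both between the limits, differed by 0.08 and 0.02. The Col6a6 probe set above the stricter limit differed by 0.07. In the fibrillar class, Col2a1, Col11a1, Col11a2, Col24a1 and Col27a1 differed by between -0.05 and 0.21, below every interstitial chain. Of these, Col24a1 lay between the limits, Col11a2 was at the level of Oxt, and Col27a1 (8.70 and 8.66) was near it. Among interstitial chains Col5a3 (8.54 and 8.96) read low too, and it differed by 0.43. The part of signal level in this division was not tested. In the FACIT class only Col14a1 exceeded 1.5-fold, and Col12a1 differed by 0.26. All 6 basement membrane genes read higher on replicate 2, by between 0.08 and 0.35, which is within the central 95% of all genes.

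The RMA summary compresses changes near background, so the counts were also taken over genes whose mean exceeded the mean stricter limit of 8.06. Of the 30 such collagens, 5 were at least 2-fold higher on replicate 2 (1.16% of 10362 genes) and 8 at least 1.5-fold (3.09%). Of the same 30, 23 read higher there by any amount, against 51.4% of those genes. Their median difference was 0.17, and that of all 10362 genes was 0.0056. Near-zero differences occurred far above the limits too, as in Col8a1 (0.06) and Col4a1 (0.08). Col18a1 (-0.01) lay nearer to the stricter limit, at 8.78 and 8.77.

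Differences were also set side by side for chains that assemble with each other. Col1a1 and Col1a2 differed between the arrays by 0.52 and 0.68, and Col4a1 and Col4a2 by 0.08 and 0.13. The type IX chains spanned 0.05 between their lowest and highest difference, at low levels. Col9a1 (7.74 and 7.73) lay between the limits, and Col9a2 (8.53 and 8.52) and Col9a3 (8.70 and 8.74) were not far above Oxt (8.45 and 8.45). Type VI chains spanned the widest interval of the assemblies examined, 0.79, from 0.61 for Col6a3 to 1.40 for Col6a1. For type V, Col5a1 and Col5a2 differed by 0.64 and 0.32.

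Several collagen genes lie next to each other in the genome. Col4a1 and Col4a2 lie on opposite strands with starts 21 bases apart, so that their transcripts overlap at the 5′ ends (RefSeq, GRCm38.p6). Col4a6 and Col4a5 run away from each other without overlap, from starts 1343 bases apart, and differed by 0.19 and 0.35 between the arrays. Col6a2 and Col6a1 are neighbours with 0 protein-coding genes between, and both were over 2-fold higher on replicate 2. Col3a1 and Col5a2 are such neighbours as well, but they differed by 1.25 and 0.32. Col18a1, with 2 protein-coding genes between it and Col6a1, differed by -0.01. Col9a1 and Col19a1, neighbours too, both lay between the limits and differed by -0.01 and -0.0050.

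Collagen needs a set of enzymes and chaperones before its fibrils form. Of 31 measured genes for collagen synthesis and processing, 28 passed the first limit and 26 the stricter one on both arrays. These are 90.3% and 83.9%, against 67.3% and 51.1% of all named genes. Prolyl hydroxylation stabilises the helix, and P4ha1 was at 12.40 and 12.57. The collagen chaperone gene Serpinh1, which encodes HSP47, was at 12.19 and 12.41. Plod2, a lysyl hydroxylase that sets the kind of crosslink, was at 12.28 and 12.37. Pcolce, an enhancer of procollagen trimming, was at 13.24 and 13.46 and the procollagen protease gene Bmp1 at 12.41 and 12.65. Lox, which starts crosslinking, was at 13.37 and 13.65. The genes below the first limit were Colgalt2 (6.37 and 6.37), Mia2 (5.70 and 5.85) and Adamts3 (6.59 and 6.68). Of the 28 above the mean limit, 25 read higher on replicate 2, against 51.2% of all genes above it. Their median was 0.26, with 0 genes at 2-fold in either direction. Over all genes, 1.05% were at least 2-fold higher on replicate 2 and 0.368% on replicate 1.

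Of 14 measured collagen receptor genes, 12 passed the first limit and 11 the stricter one. These are 85.7% and 78.6%, against 67.3% and 51.1% of all named genes. The integrin chain gene Itgb1 was at 13.22 and 13.18 and the collagen-activated kinase Ddr2 at 12.15 and 12.43. Mrc2, an endocytic receptor that clears collagen fragments, was at 11.43 and 11.92. Itga11, a fibroblast integrin chain for fibrillar collagen, was at 9.95 and 11.27, 2.49-fold higher on replicate 2 and the only receptor gene past 2-fold. Mrc1 (6.30 and 6.44) and Lair1 (6.84 and 6.81), receptors of macrophages and other leukocytes, were below the first limit. The median difference of the 12 genes above the mean limit was 0.21, with 7 higher on replicate 2. Over all genes above that limit, 51.2% read higher on replicate 2, and 1.05% by at least 2-fold.

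Among 14 fibril-associated proteins, 11 passed the first limit on both arrays (78.6%, against 67.3% of all named genes). The stricter one was passed on both by 7 (50%), near the 51.1% of all named genes. The largest differences were those of the leucine-rich proteoglycans Prelp (8.16 and 11.67), Fmod (7.20 and 10.37) and Ogn (6.72 and 9.45). On the replicate 1 array Ogn lay below the first limit and Fmod barely above it, so against the stricter limit their folds are at least 2.58 and 4.86. Prelp differed 11.4-fold. Lum (5.24 and 5.37) and Dpt (6.22 and 6.68) lay below the first limit. The median difference of the 12 genes above the mean limit was 0.35.

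Of 15 measured genes for collagen breakdown and its inhibitors, 12 passed the first limit and 9 the stricter one. These are 80% and 60%, against 67.3% and 51.1% of all named genes. The gelatinase gene Mmp2 was at 12.26 and 12.61, and Mmp14, a membrane-bound collagenase, at 12.63 and 12.71. Ctsk, a lysosomal collagenase, was at 9.60 and 10.60, 2.01-fold higher on replicate 2. The interstitial collagenase gene Mmp1a (5.26 and 5.19), Mmp8 (5.23 and 4.89) and Timp4 (6.22 and 6.23) lay below the first limit. The median difference was 0.08.

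**Figure D3:**
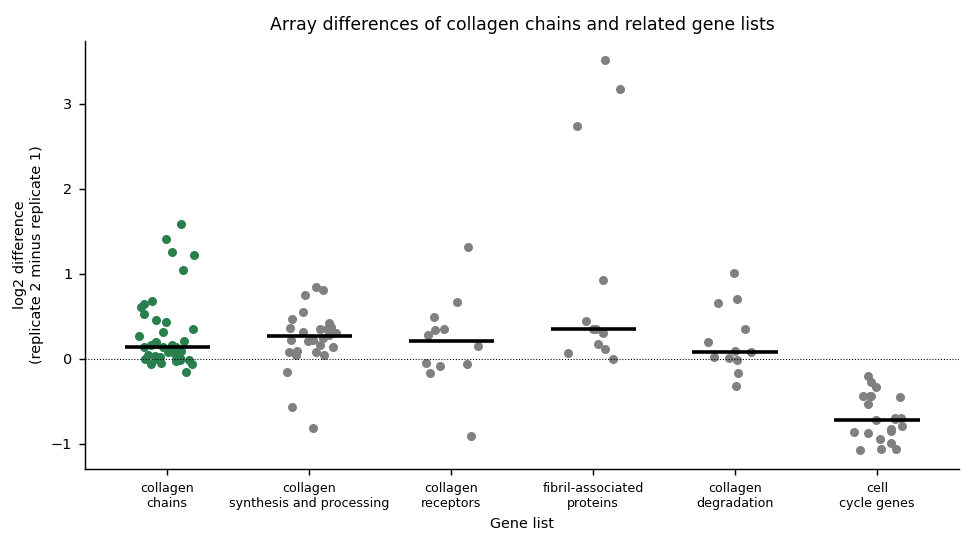
log2 difference between the arrays (replicate 2 minus replicate 1, vertical axis) for collagen chains and 5 related gene lists (horizontal axis); each point is a gene whose mean level exceeded the mean first limit, points are spread sideways for legibility, and the bar is the list's median. Medians are 0.14 for collagen chains, 0.26 for synthesis and processing, 0.21 for receptors, 0.35 for fibril-associated proteins, 0.08 for degradation and -0.71 for cell cycle genes.

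Other gene groups also differed between the arrays. Of 22 measured cell cycle genes, 22 read lower on replicate 2, with a median difference of -0.71, 3 of them at least 2-fold (Mki67, Bub1 and Plk1). Over all genes above the mean limit, 51.2% read higher on replicate 2 and 0.368% were at least 2-fold higher on replicate 1. Mki67, a marker of cycling cells, was at 10.52 and 9.45, and Top2a, needed to separate chromosomes, at 10.67 and 9.82. Among 5 pericyte markers, Rgs5 was at 7.37 and 9.91, Cspg4 at 9.28 and 9.99, Notch3 at 8.70 and 9.02 and Mcam at 12.84 and 12.72, while Abcc9 (7.00 and 7.04) was below the first limit. The 6 FRC and fibroblast markers all read higher on replicate 2, by between 0.10 and 0.42. That is within the central 95% of all genes above the mean limit (-0.52 to 0.62). The part of these groups in the collagen differences was not tested. In bulk RNA, a difference in the share of a cell type and a difference in RNA per cell cannot be told apart.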

How the data were processed

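The deposited table holds linear intensities of 24679 probe sets. The submitters' processing notes name RMA (robust multi-array average) without a version. RMA corrects background, equalises the arrays' distributions and summarises probes, so a change in total RNA would not show. The sources used here give neither the genome build nor which arrays were equalised together. Median intensities were 286.0 and 285.7. Arrays have no read depth, and their number, 2, limits precision.

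From the deposited intensities, log2 values were computed with Python 3.11.15 and pandas 2.3.3. Probe sets with 1 annotated gene (21354) were kept and averaged per gene. Probe sets with several genes (1275) or no annotation (2050) were left out, and 0 of the former named a collagen. No genes were left out for low values when levels were described, and differences used genes above the mean limit. No test was run because there is 1 group. Members, gene lists, limits and the rule for named genes (every collagen above the limit, a fixed set from the related lists, and list members past 2-fold or on the smaller side of the limit) were chosen with earlier results of these data known. Col2a1 with its partners against the interstitial chains, Cspg4, Notch3, Mcam and some other comparisons within classes were picked after the values were seen. Counting was tested on simulated data. Promoters came from the RefSeq table of build GRCm38.p6. Alternatives were other limits and percentiles, 1 array, the highest or lowest probe set, quantile normalisation, loess (span 0.3, statsmodels 0.14.6), other filters and folds.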

Additional observations from a re-analysis of the deposited data

How the results depend on the processing

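Of 66 recomputed values, 65 kept their direction and stayed within 1.5 times the reported count, or within the median SD between arrays (0.078), and 1 did not. The count of collagens at least 2-fold higher on replicate 2, 5, became 8 at 1.5-fold. These 5 genes were above both limits on both arrays, so the other filters on level and set limits could not lower that count. The count above the background limit was 42 without replicate 1 and 42 without replicate 2, and 29 under the stricter limit. The fall from 42 to 29 was within the margin of 1.5 times and so is among the 65. The count 2-fold higher on replicate 1 was 0 under every alternative run. No filter on level could raise it, because the largest collagen difference in that direction was 1.11-fold (Col26a1). Setting arrays below the stricter limit to that limit was added after the data were seen. Quantile normalisation and loess shifted the median of all genes to -0.0077 and -0.0016. Differences need both arrays, so leaving out a replicate gave no value for them. No paired analysis was possible because there is 1 group.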
